A study of Mus musculus with 16 samples.

Results

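The genes described here are 37 genes of motile cilia and of their control, taken from a list of names and matched to the Ensembl mouse identifiers of the files. The list was chosen with earlier results of these data known. All 37 were found among the 55335 genes counted, and 36 of them were among the 19764 genes that passed the count filter in a fit of all libraries. They hold 4 transcription regulators (Foxj1, Mcidas, Rfx2 and Rfx3) and 33 genes whose products build, assemble or mark the motile axoneme. The RNA was of oligodendrocyte precursor cells (OPCs), which had been derived in culture from mouse neural stem cells (mixed C57BL6J/129svEmx background) and collected on monolayer day 4. There were 16 libraries, 4 in each of 4 groups: WT (RXRg+/+) without treatment, WT with T3 (triiodothyronine, a thyroid hormone) for 24 h, RXRgKO (RXRg-/-, without retinoid X receptor gamma) without treatment, and RXRgKO with T3 for 24 h. Whether libraries of 1 group are from different cultures is not given, so p-values measure no more than the spread between these libraries, which may be technical.

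Libraries held 18262279 to 42588442 counts in genes. Rxrg, the gene named as deleted, was higher under the RXRgKO label: it was at 1.79, 1.48, 1.14 and 1.65 CPM (counts scaled to the normalised library size) in the untreated WT-labelled libraries and at 4.83, 3.77, 4.60 and 3.79 CPM in the untreated RXRgKO-labelled ones, a log2 fold change of 1.48 (SE 0.22, adjusted p = 0.0002), and with T3 the log2 fold change was 2.79 (SE 0.23, adjusted p = 8.8e-07). Which part of the gene was deleted is not given in the sources used here, and counts over the whole gene may not check a deletion of some of its exons. Every comparison is therefore named by its labels. All 8 OPC markers had counts in every library, and their summed level was 2231 to 5343 CPM. The libraries of each label fell into sets that resembled each other. WT-labelled replicate 1 stood alone in both treatments. In the RXRgKO label, 4 libraries (replicates 1 and 3 without T3, replicates 1 and 2 with it) lacked Xist, a transcript of the inactive X chromosome, at 1.39 to 3.75 CPM, and the others had it at 543 to 723 CPM. Xist also differed with T3 in WT-labelled replicates 2 to 4, from 1198 to 1382 CPM without it to 276 to 365 CPM with it, and whatever moved with Xist there cannot be told apart from T3.

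Motile cilia are the beating projections with which ependymal cells move cerebrospinal fluid through the brain ventricles. Their shaft, the axoneme, is a ring of doublet microtubules around a central pair, with dynein motor arms, radial spokes and regulatory complexes that set the beat. Multiciliated cells switch the programme on through Mcidas and related factors, Foxj1 and the RFX factors, which bind X-box sites in the promoters of many ciliary genes. OPCs and oligodendrocytes are not known for motile cilia. In bulk RNA, more cells of a ciliated type and more RNA per cell cannot be told apart.

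Most motile cilia genes were higher in the libraries labelled RXRgKO. In the untreated libraries all 4 RXRgKO-labelled values lay above all 4 WT-labelled values for 26 of the 37 genes, against 9.35% of all genes tested, and the same held for 26 of 37 with T3, against 9.17%. In edgeR's quasi-likelihood test with Benjamini-Hochberg adjustment over all genes (called at an adjusted p under 0.05), 22 of the 37 rose in the RXRgKO-labelled libraries without T3 and 1, Dnai2, fell, where 6.17% of all genes tested rose and 5.16% fell. With T3, 26 rose and 1, again Dnai2, fell, where 8.1% and 6.8% of all genes did. The median log2 fold change of the 36 genes tested was 1.30 untreated and 1.31 with T3, beside -0.00082 and 0.025 over all genes. In all, 21 genes rose in both treatments, 27 in at least 1 of them, and 9 were called in neither: Mcidas, Rfx2, Dnah12, Spag17, Hydin, Tekt2, Cfap43, Tmem212 and Mlf1.

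The counts include 5 genes (Mcidas, Spag17, Ccdc153, Tekt4 and Ccdc113) that passed the count filter only through the RXRgKO-labelled libraries. Among the 31 genes that also passed in the WT-labelled libraries alone, 19 rose untreated and 23 with T3. With no count filter, 20 of 37 rose untreated and 22 with T3, where 1.97% and 2.35% of 49786 genes did. The summed level of the 33 genes other than the regulators was 84.5 to 93.8 CPM in the untreated WT-labelled libraries, 108 to 116 CPM in those with T3, 149 to 238 CPM in the untreated RXRgKO-labelled libraries and 172 to 242 CPM in those with T3. Both ranges of the WT label lay below those of the RXRgKO label in each treatment, and the RXRgKO-labelled libraries were the more spread.

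**Figure D1:**
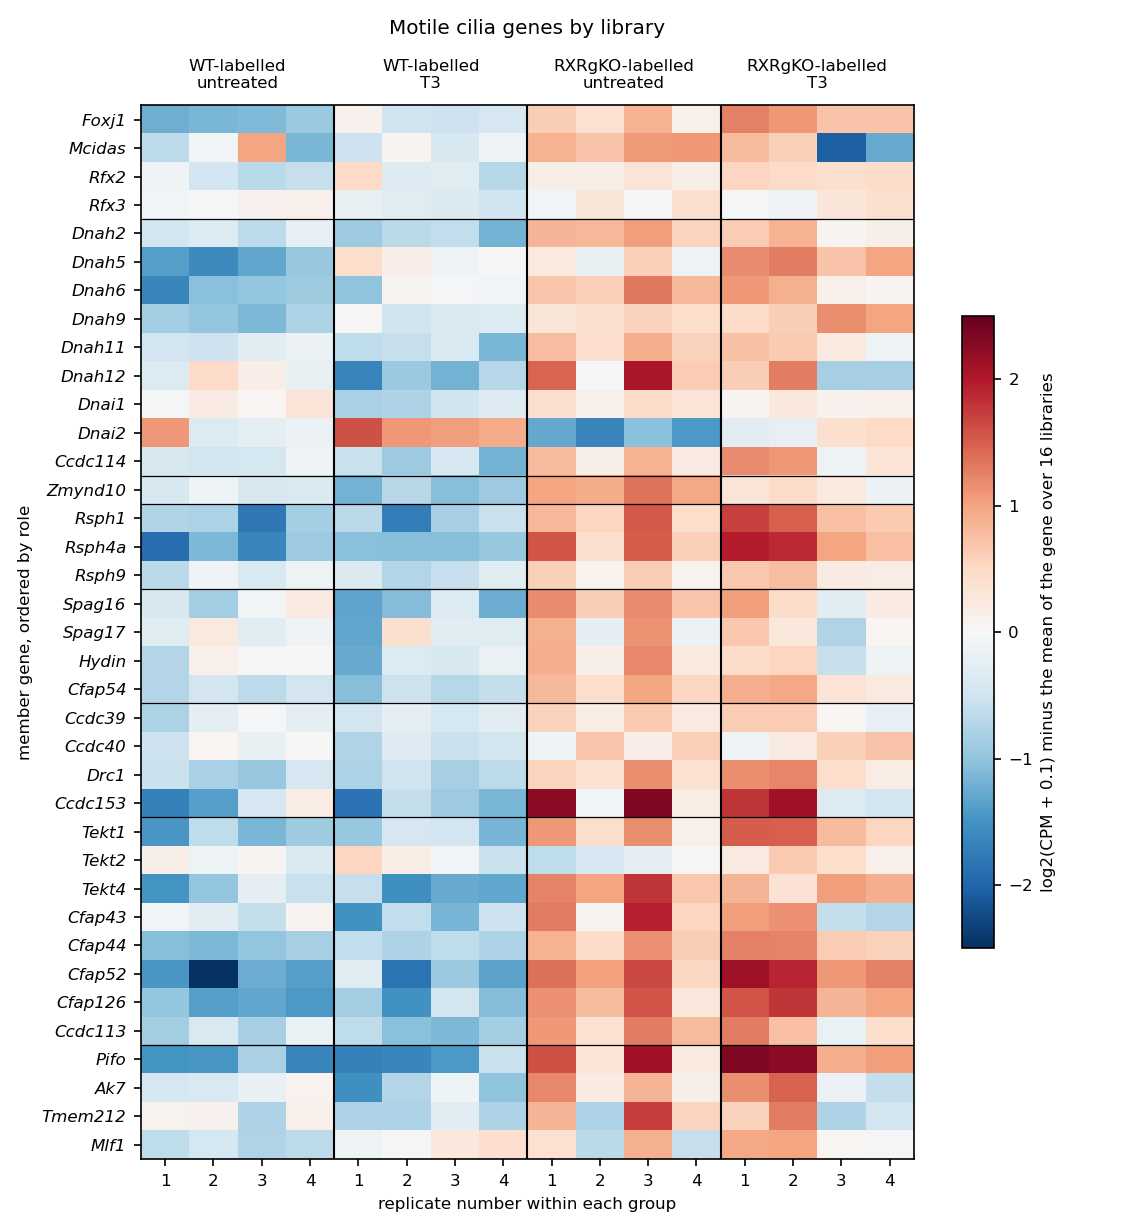
Each row is 1 of the 37 motile cilia genes in the order of the roles described in the text (horizontal lines separate roles), each column 1 library, and the colour is log2(CPM + 0.1) minus the mean of that gene over the 16 libraries. Most rows are blue in the 8 WT-labelled columns and red in the 8 RXRgKO-labelled ones, the deepest red lies in untreated replicates 1 and 3 and T3-treated replicates 1 and 2 of the RXRgKO label, and Dnai2 runs the other way.

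Since many of these genes moved together, their promoters were searched for the X-box, the site of the RFX factors, written here as GTNNCC, a gap of 0 to 3 bases and NGNAAC, on both strands, and none of the genes had both this motif and the forkhead motif given below. The windows were RefSeq's, on GRCm38.p6, from 250 bases before to 50 bases after the start of each transcript. Of the 33 genes in that table, 14 (42.4%) had a match, against 5.94% of the 27025 genes in it and 5.25% of all 32851 promoters. Foxj1, Rsph1, Rsph4a and Cfap54 were not among those searched. The 14 were Rfx2, Dnah9, Dnai1, Dnai2, Ccdc114, Zmynd10, Spag16, Spag17, Hydin, Ccdc153, Tekt2, Tekt4, Cfap44 and Pifo. Of the 17 genes in the table that rose in both treatments, 7 had a match, a share close to that of all 33. Of these sites 6 are shown, 4 from genes that rose in both treatments, then Dnai2, which fell, and Rfx2, which was called in neither. They are written 5′ to 3′ along the strand of the gene, with the match in capitals and 7 bases, or as many as precede the start, on either side.
Cfap44: gagggacGTTGCTATGGCAACcgcagta
Pifo: cggttccGTTCCCTTGGCAACgtagta
Dnah9: tccaccaGTTTCCCAGCAACaacgacg
Spag16: gcaacgcGTTGCCGTAGTAACtgcggac
Dnai2: ggccaggGTTGCTAGGCAACtggtaaa
Rfx2: ggtaaccGTTGCCGGGCGCAACgccccgc

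These stretches lie at chr16:44394765-44394792 (plus strand) for Cfap44, chr3:106001498-106001524 (minus strand) for Pifo, chr11:66168614-66168640 (minus strand) for Dnah9, chr1:69826860-69826887 (plus strand) for Spag16, chr11:114727379-114727405 (plus strand) for Dnai2 and chr17:56831103-56831131 (minus strand) for Rfx2. The capitals end 14 bases before the start of Cfap44, 7 before that of Pifo, 70 before that of Dnah9, 90 before that of Spag16, 21 before that of Dnai2 and 102 before that of Rfx2. The X-box letters were thus present before genes that rose, before the gene that fell and before a gene that was not called. The forkhead motif GTAAACA, read on both strands as the site of Foxj1 and its relatives, was found for 3 of 33 genes (9.09%; Ak7, Cfap43 and Mlf1) against 4.05% of the genes in the table. A match is a run of letters in the window and says nothing of binding.

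Among the regulators, Foxj1 alone rose in both treatments. Foxj1 (GRCm38 chromosome 11, 116330704 to 116335399, minus strand), the forkhead factor that drives motile ciliogenesis, was at 13.1, 13.7, 14.1 and 15.9 CPM in the untreated WT-labelled libraries and at 46.5, 39.6, 55.5 and 33.4 CPM in the untreated RXRgKO-labelled ones. With T3, Foxj1 stood at 32.6, 21.6, 21.2 and 22.7 CPM under the WT label and at 72.9, 64.2, 49.9 and 49.9 CPM under the RXRgKO label. The labels did not overlap in either treatment, and within each treatment the highest RXRgKO-labelled values were those of the libraries lacking Xist. Foxj1 rose by 1.62 (SE 0.18, adjusted p = 2e-05) on the log2 scale untreated and by 1.27 (SE 0.18, adjusted p = 0.00014) with T3. Rfx3, an RFX factor that is also used by cells with primary cilia, was at 98.1, 102, 111 and 113 CPM in the untreated WT-labelled libraries and at 98.5, 127, 99.6 and 137 CPM in the untreated RXRgKO-labelled ones. With T3, Rfx3 stood at 90.8, 84.0, 80.8 and 73.2 CPM under the WT label and at 102, 96.9, 128 and 136 CPM under the RXRgKO label. The untreated groups overlapped, with a log2 fold change of 0.12 (SE 0.14, adjusted p = 0.7). With T3 the groups did not overlap and Rfx3 rose by 0.49 (SE 0.14, adjusted p = 0.028), a call that was lost without any 1 of T3-treated WT-labelled replicates 2 to 4 or RXRgKO-labelled replicates 3 and 4. Contrary to most other genes, Rfx3 was higher in the RXRgKO-labelled libraries with Xist than in those lacking it.

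Rfx2, the RFX factor most tied to multiciliated and germ cells, was at 9.19, 7.01, 6.11 and 6.49 CPM in the untreated WT-labelled libraries and at 10.8, 10.9, 12.3 and 10.8 CPM in the untreated RXRgKO-labelled ones. With T3, Rfx2 stood at 13.9, 7.83, 7.89 and 5.89 CPM under the WT label and at 14.3, 13.6, 13.0 and 13.5 CPM under the RXRgKO label. Untreated groups did not overlap. WT-labelled replicate 1 was the highest of its group in both treatments, and with T3 it lay within the RXRgKO-labelled range. Rfx2 had log2 fold changes of 0.64 (SE 0.20, adjusted p = 0.056) untreated and 0.61 (SE 0.20, adjusted p = 0.054) with T3, neither of them called. Mcidas, which starts the multiciliated programme upstream of Foxj1, was near the limit of detection, at 0.163, 0.296, 0.716 and 0.0871 CPM in the untreated WT-labelled libraries and at 0.651, 0.578, 0.766 and 0.776 CPM in the untreated RXRgKO-labelled ones. With T3, Mcidas stood at 0.190, 0.336, 0.213 and 0.289 CPM under the WT label and at 0.619, 0.526, 0 and 0.0739 CPM under the RXRgKO label. Its counts were 0 to 26 per library, and T3-treated RXRgKO-labelled replicate 3 had none. Mcidas was called in neither treatment, with log2 fold changes of 1.12 (SE 0.73, adjusted p = 0.42) and 0.11 (SE 0.81, adjusted p = 0.96). Per kilobase of exon and averaged over all libraries, Foxj1 had 13.5 CPM, Rfx3 9.50 CPM and Mlf1 8.52 CPM, the 3 highest levels of the 37 genes, and Spag17 the lowest at 0.0491 CPM.

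The dynein arm genes encode the motors and their docking parts. Dnah5 and Dnah9 are heavy chains of the outer arm. Dnah5 was at 1.83, 1.56, 1.94 and 2.52 CPM in the untreated WT-labelled libraries and at 5.89, 4.31, 7.54 and 4.48 CPM in the untreated RXRgKO-labelled ones. With T3, Dnah5 stood at 6.76, 5.57, 4.52 and 5.03 CPM under the WT label and at 11.3, 12.2, 8.17 and 9.80 CPM under the RXRgKO label. Each group with the RXRgKO label lay above the WT-labelled group of the same treatment, and Dnah5 rose by 1.50 (SE 0.22, adjusted p = 0.00018) untreated and by 0.91 (SE 0.20, adjusted p = 0.0047) with T3. Dnah9 was at 9.07, 8.28, 7.58 and 9.49 CPM in the untreated WT-labelled libraries and at 20.4, 21.8, 24.9 and 22.6 CPM in the untreated RXRgKO-labelled ones. With T3, Dnah9 stood at 17, 11.7, 12.8 and 13.1 CPM under the WT label and at 23.3, 25.3, 37 and 32.9 CPM under the RXRgKO label. The groups did not overlap in either treatment, and Dnah9 rose by 1.38 (SE 0.16, adjusted p = 2.2e-05) and 1.12 (SE 0.16, adjusted p = 0.00012). Unlike most of the genes, Dnah9 with T3 was highest in the RXRgKO-labelled libraries with Xist. Dnah11, another outer arm heavy chain, was at 2.28, 2.20, 2.61 and 2.87 CPM in the untreated WT-labelled libraries and at 5.55, 4.31, 6.09 and 4.81 CPM in the untreated RXRgKO-labelled ones. With T3, Dnah11 stood at 2.02, 2.11, 2.43 and 1.40 CPM under the WT label and at 5.38, 5.11, 3.80 and 2.93 CPM under the RXRgKO label. All RXRgKO-labelled libraries were above all WT-labelled ones, and Dnah11 rose by 1.06 (SE 0.21, adjusted p = 0.0026) and 1.10 (SE 0.21, adjusted p = 0.0019). Of its exon bases, 642 are shared with the antisense gene Cdca7l, and the strand setting of the counting is not given in the sources used here. In the GENCODE annotation 12 of the 37 genes share between 15 and 1336 exon bases with a gene on the other strand, the most in Spag17 and Ccdc39, so that without strand their reads and those of the partner cannot be told apart.

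Dnah2 and Dnah6 are inner arm heavy chains. Dnah2 was at 2.24, 2.45, 1.94 and 2.70 CPM in the untreated WT-labelled libraries and at 5.69, 5.62, 6.56 and 4.66 CPM in the untreated RXRgKO-labelled ones. With T3, Dnah2 stood at 1.61, 1.92, 2.01 and 1.32 CPM under the WT label and at 4.91, 5.79, 3.25 and 3.45 CPM under the RXRgKO label. The groups were separate in each treatment, and Dnah2 rose by 1.27 (SE 0.20, adjusted p = 0.00044) and 1.33 (SE 0.21, adjusted p = 0.00031). Dnah6 was at 1.75, 2.66, 2.82 and 2.96 CPM in the untreated WT-labelled libraries and at 9.11, 8.55, 14.0 and 9.85 CPM in the untreated RXRgKO-labelled ones. With T3, Dnah6 stood at 2.75, 5.86, 5.42 and 5.36 CPM under the WT label and at 11.9, 10.5, 6.09 and 5.86 CPM under the RXRgKO label. It rose by 2.02 (SE 0.29, adjusted p = 0.00015) untreated. With T3 the groups were adjacent, the lowest RXRgKO-labelled library and the highest WT-labelled one both being at 5.86 CPM, and the log2 fold change of 0.82 (SE 0.28, adjusted p = 0.055) was not called. Dnah12, a further heavy chain, was at 0.253 to 1.44 CPM over the WT-labelled libraries and 0.517 to 4.43 CPM over the RXRgKO-labelled ones, with overlap in both treatments and no call.

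The intermediate chains of the outer arm did not move together. Dnai1 was at 1.95, 2.37, 2.11 and 2.57 CPM in the untreated WT-labelled libraries and at 2.71, 2.23, 2.81 and 2.57 CPM in the untreated RXRgKO-labelled ones. With T3, Dnai1 stood at 1.11, 1.15, 1.41 and 1.61 CPM under the WT label and at 2.13, 2.47, 2.19 and 2.22 CPM under the RXRgKO label. Untreated groups overlapped, with a log2 fold change of 0.20 (SE 0.16, adjusted p = 0.54), whereas the groups with T3 were separate and Dnai1 rose by 0.77 (SE 0.17, adjusted p = 0.0039). Dnai2 (chromosome 11, 114727408 to 114757889, plus strand) was the reverse of the rest, at 21.6, 8.03, 8.55 and 9.10 CPM in the untreated WT-labelled libraries and at 4.14, 3.16, 4.85 and 3.67 CPM in the untreated RXRgKO-labelled ones. With T3, Dnai2 stood at 30.6, 21.7, 21.1 and 19.5 CPM under the WT label and at 8.28, 8.79, 13.4 and 14.4 CPM under the RXRgKO label. All RXRgKO-labelled values were below all WT-labelled values in each treatment. Dnai2 fell by 1.58 (SE 0.30, adjusted p = 0.002) on the log2 scale untreated and by 1.05 (SE 0.29, adjusted p = 0.021) with T3, and the call with T3 was lost without WT-labelled replicate 1 or without RXRgKO-labelled replicate 1 or 2. Ccdc114, a part of the docking complex of the outer arm, was at 1.34, 1.27, 1.31 and 1.70 CPM in the untreated WT-labelled libraries and at 3.22, 2.00, 3.41 and 2.09 CPM in the untreated RXRgKO-labelled ones. With T3, Ccdc114 stood at 1.20, 0.912, 1.32 and 0.742 CPM under the WT label and at 4.22, 3.95, 1.64 and 2.31 CPM under the RXRgKO label. The groups did not overlap, but only the difference with T3 was called, at 1.51 (SE 0.30, adjusted p = 0.0024) beside 0.93 (SE 0.29, adjusted p = 0.053) untreated. Zmynd10, a cytoplasmic factor for the assembly of dynein arms, was at 1.26, 1.56, 1.26 and 1.31 CPM in the untreated WT-labelled libraries and at 3.49, 3.31, 4.51 and 3.40 CPM in the untreated RXRgKO-labelled ones. With T3, Zmynd10 stood at 0.695, 1.01, 0.768 and 0.866 CPM under the WT label and at 2.17, 2.42, 2.03 and 1.53 CPM under the RXRgKO label. It rose by 1.44 (SE 0.18, adjusted p = 4.8e-05) and 1.28 (SE 0.19, adjusted p = 0.00023) with groups that did not overlap.

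All 3 radial spoke genes rose in both treatments. Rsph4a, a protein of the spoke head, had a wide separation, at 0.650, 1.18, 0.800 and 1.39 CPM in the untreated WT-labelled libraries and at 8.25, 3.62, 7.92 and 4.15 CPM in the untreated RXRgKO-labelled ones. With T3, Rsph4a stood at 1.26, 1.25, 1.24 and 1.36 CPM under the WT label and at 10.8, 10.2, 5.49 and 4.65 CPM under the RXRgKO label. The lowest RXRgKO-labelled library was far above the highest WT-labelled one, and Rsph4a rose by 2.57 (SE 0.35, adjusted p = 0.0001) and 2.59 (SE 0.34, adjusted p = 6.5e-05). Rsph1, also of the spoke head, was at 1.14, 1.10, 0.505 and 1.04 CPM in the untreated WT-labelled libraries and at 3.60, 2.93, 5.88 and 2.72 CPM in the untreated RXRgKO-labelled ones. With T3, Rsph1 stood at 1.20, 0.528, 1.07 and 1.32 CPM under the WT label and at 6.65, 5.74, 3.41 and 3.18 CPM under the RXRgKO label. It rose by 1.98 (SE 0.35, adjusted p = 0.00098) and 2.17 (SE 0.34, adjusted p = 0.00034), with no overlap. Rsph9, the third of the group, was expressed more evenly, at 4.19, 6.38, 5.18 and 6.18 CPM in the untreated WT-labelled libraries and at 10.3, 7.24, 10.5 and 7.22 CPM in the untreated RXRgKO-labelled ones. With T3, Rsph9 stood at 5.25, 4.03, 4.52 and 5.44 CPM under the WT label and at 10.8, 11.6, 7.78 and 7.73 CPM under the RXRgKO label. The groups were separate and Rsph9 rose by 0.69 (SE 0.19, adjusted p = 0.027) and 0.97 (SE 0.19, adjusted p = 0.0023), but the untreated call was lost without untreated RXRgKO-labelled replicate 1 or 3 or without untreated WT-labelled replicate 1 or 3.

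In the central apparatus, the structure around the central pair, 2 of 4 genes rose in each treatment. Cfap54 was at 3.5, 4.27, 3.71 and 4.22 CPM in the untreated WT-labelled libraries and at 10.3, 8.05, 11.8 and 8.42 CPM in the untreated RXRgKO-labelled ones. With T3, Cfap54 stood at 2.75, 4.03, 3.54 and 3.88 CPM under the WT label and at 11.1, 11.6, 7.49 and 7.02 CPM under the RXRgKO label. No libraries overlapped, and Cfap54 rose by 1.30 (SE 0.19, adjusted p = 0.00024) and 1.39 (SE 0.19, adjusted p = 0.00011). Spag16 was at 0.447, 0.296, 0.590 and 0.740 CPM in the untreated WT-labelled libraries and at 1.54, 1.00, 1.53 and 1.07 CPM in the untreated RXRgKO-labelled ones. With T3, Spag16 stood at 0.190, 0.240, 0.469 and 0.206 CPM under the WT label and at 1.39, 0.895, 0.494 and 0.739 CPM under the RXRgKO label. Its counts were 5 to 45 per library. Spag16 rose by 1.31 (SE 0.36, adjusted p = 0.025) and 1.65 (SE 0.40, adjusted p = 0.0085), and the untreated call was lost without untreated RXRgKO-labelled replicate 1 or 3 or WT-labelled replicate 1 or 2. Hydin and Spag17, large central apparatus proteins, were not called. Hydin ranged from 0.569 to 1.65 CPM over the WT-labelled libraries and from 0.963 to 3.58 CPM over the RXRgKO-labelled ones, with log2 fold changes of 0.84 (SE 0.33, adjusted p = 0.13) and 0.66 (SE 0.34, adjusted p = 0.24). Spag17 was at 0.0948 to 0.528 CPM and 0.182 to 0.937 CPM, with 0.74 (SE 0.50, adjusted p = 0.45) and 0.50 (SE 0.52, adjusted p = 0.62). Counts were low for both, 18 to 84 per library for Hydin and 3 to 23 for Spag17. All 4 untreated RXRgKO-labelled libraries were above all WT-labelled ones for Hydin, but only just. The lowest was at 1.656 CPM, and the highest untreated WT-labelled library at 1.648 CPM. The RXRgKO-labelled libraries lacking Xist, set alone against the WT label, had Hydin higher by 1.23 (SE 0.28, adjusted p = 0.0056) and 1.07 (SE 0.31, adjusted p = 0.015), and Spag17 higher by 1.29 (SE 0.45, adjusted p = 0.045) untreated. With T3, Spag17 had 0.98 (SE 0.49, adjusted p = 0.14) in those libraries, and neither gene was called in the libraries with Xist. This comparison, of 2 RXRgKO-labelled libraries in each treatment, was chosen after seeing the data. As every WT-labelled library had Xist, the label cannot be told apart in it from whatever goes with Xist.

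Ccdc39 and Ccdc40 form the rulers that set the repeat length of the axoneme, and Drc1 is a part of the nexin-dynein regulatory complex that links the doublets. Ccdc39 was at 7.85, 11.5, 13.1 and 11.7 CPM in the untreated WT-labelled libraries and at 20.6, 15.5, 21.5 and 16 CPM in the untreated RXRgKO-labelled ones. With T3, Ccdc39 stood at 9.86, 11.5, 10.1 and 11.2 CPM under the WT label and at 21.4, 21.3, 14.2 and 11.9 CPM under the RXRgKO label. It rose by 0.73 (SE 0.20, adjusted p = 0.022) and 0.68 (SE 0.20, adjusted p = 0.028). The untreated call was lost without untreated RXRgKO-labelled replicate 1 or 3, and the call with T3 without T3-treated RXRgKO-labelled replicate 1 or 2 or WT-labelled replicate 3 or 4. Ccdc40 was at 5.57, 8.32, 7.12 and 8.10 CPM in the untreated WT-labelled libraries and at 7.43, 13.1, 9.03 and 12.2 CPM in the untreated RXRgKO-labelled ones. With T3, Ccdc40 stood at 4.77, 6.39, 5.42 and 5.85 CPM under the WT label and at 7.43, 9.37, 12.2 and 13.2 CPM under the RXRgKO label. Untreated groups overlapped, with 0.52 (SE 0.21, adjusted p = 0.14). Ccdc40 rose by 0.92 (SE 0.21, adjusted p = 0.0063) with T3, and was higher in the libraries with Xist than in those lacking it. Drc1 was at 2.24, 1.86, 1.68 and 2.48 CPM in the untreated WT-labelled libraries and at 5.00, 4.39, 7.66 and 4.42 CPM in the untreated RXRgKO-labelled ones. With T3, Drc1 stood at 1.90, 2.35, 1.83 and 2.10 CPM under the WT label and at 7.66, 8.0, 4.58 and 3.84 CPM under the RXRgKO label. The groups were separate, and Drc1 rose by 1.37 (SE 0.25, adjusted p = 0.0015) and 1.55 (SE 0.25, adjusted p = 0.00046). Ccdc153, a ciliary coiled-coil gene, was at 0.0813, 0.127, 0.337 and 0.566 CPM in the untreated WT-labelled libraries and at 2.71, 0.462, 2.81 and 0.567 CPM in the untreated RXRgKO-labelled ones. With T3, Ccdc153 stood at 0.0632, 0.288, 0.213 and 0.165 CPM under the WT label and at 1.93, 2.42, 0.364 and 0.320 CPM under the RXRgKO label. High values were limited to the libraries lacking Xist, and those with Xist reached at most 0.567 CPM. Ccdc153 rose by 2.54 (SE 0.80, adjusted p = 0.05) and 2.75 (SE 0.86, adjusted p = 0.041), the first of which was lost without any 1 of untreated WT-labelled replicates 1 to 3 or RXRgKO-labelled replicates 1 and 3, and the second without any 1 of the 4 treated WT-labelled libraries or RXRgKO-labelled replicates 1 and 2.

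Tektins are filament proteins of the doublet microtubules. Tekt1 was at 0.732, 1.35, 0.927 and 1.13 CPM in the untreated WT-labelled libraries and at 4.69, 2.97, 4.94 and 2.36 CPM in the untreated RXRgKO-labelled ones. With T3, Tekt1 stood at 1.07, 1.58, 1.54 and 0.907 CPM under the WT label and at 6.35, 6.32, 3.82 and 3.18 CPM under the RXRgKO label. Tekt4 was at 0.203, 0.338, 0.632 and 0.479 CPM in the untreated WT-labelled libraries and at 1.92, 1.58, 2.85 and 1.25 CPM in the untreated RXRgKO-labelled ones. With T3, Tekt4 stood at 0.474, 0.192, 0.256 and 0.247 CPM under the WT label and at 1.43, 1.00, 1.66 and 1.50 CPM under the RXRgKO label. The RXRgKO-labelled libraries were above the WT-labelled ones for both genes in both treatments. Tekt1 rose by 1.84 (SE 0.31, adjusted p = 0.00072) and 1.94 (SE 0.30, adjusted p = 0.00032), and Tekt4 by 2.19 (SE 0.35, adjusted p = 0.00042) and 2.21 (SE 0.36, adjusted p = 0.00046). Tekt2, the third tektin measured, was at 0.948 to 2.12 CPM over the WT-labelled libraries and 0.891 to 2.32 CPM over the RXRgKO-labelled ones. Its groups overlapped, with log2 fold changes of -0.26 (SE 0.25, adjusted p = 0.62) and 0.30 (SE 0.24, adjusted p = 0.47).

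The cilia and flagella associated proteins included Cfap52, with the largest untreated log2 fold change of the 37 genes. Cfap52, a protein inside the doublet, was at 0.528, 0.211, 0.632 and 0.566 CPM in the untreated WT-labelled libraries and at 4.38, 3.39, 5.32 and 2.36 CPM in the untreated RXRgKO-labelled ones. With T3, Cfap52 stood at 1.30, 0.384, 0.811 and 0.577 CPM under the WT label and at 7.43, 6.32, 3.54 and 4.04 CPM under the RXRgKO label. It rose by 2.98 (SE 0.40, adjusted p = 8.2e-05) and 2.74 (SE 0.37, adjusted p = 8.3e-05), and no RXRgKO-labelled library came near the WT-labelled range. Cfap126, which places basal bodies and cilia in the plane of the cell surface, was at 0.813, 0.591, 0.632 and 0.566 CPM in the untreated WT-labelled libraries and at 3.84, 3.00, 5.19 and 2.09 CPM in the untreated RXRgKO-labelled ones. With T3, Cfap126 stood at 0.885, 0.528, 1.19 and 0.742 CPM under the WT label and at 5.18, 6.11, 3.12 and 3.45 CPM under the RXRgKO label. It rose by 2.42 (SE 0.32, adjusted p = 7.8e-05) and 2.39 (SE 0.31, adjusted p = 5.9e-05). Cfap44, whose X-box is shown above and which helps tether inner arm dyneins, was at 3.13, 3.00, 3.29 and 3.70 CPM in the untreated WT-labelled libraries and at 12.3, 9.21, 14.8 and 10.2 CPM in the untreated RXRgKO-labelled ones. With T3, Cfap44 stood at 4.30, 3.84, 4.22 and 3.88 CPM under the WT label and at 16.1, 15.9, 10.3 and 9.90 CPM under the RXRgKO label. The WT-labelled libraries were close together and all below the RXRgKO-labelled ones, and Cfap44 rose by 1.82 (SE 0.19, adjusted p = 9.2e-06) and 1.68 (SE 0.19, adjusted p = 1.4e-05). Ccdc113, a ciliary coiled-coil gene, was at 0.122, 0.211, 0.126 and 0.261 CPM in the untreated WT-labelled libraries and at 0.754, 0.424, 0.894 and 0.597 CPM in the untreated RXRgKO-labelled ones. With T3, Ccdc113 stood at 0.158, 0.0960, 0.0853 and 0.124 CPM under the WT label and at 0.890, 0.579, 0.260 and 0.443 CPM under the RXRgKO label. From 2 to 23 counts per library, Ccdc113 rose by 1.86 (SE 0.43, adjusted p = 0.0082) and 2.12 (SE 0.46, adjusted p = 0.0042). Cfap43 was at 0.442 to 1.52 CPM in the WT-labelled libraries and 0.837 to 5.92 CPM in the RXRgKO-labelled ones, with uncalled log2 fold changes of 1.40 (SE 0.47, adjusted p = 0.069) and 1.44 (SE 0.51, adjusted p = 0.069). In this group 6 of 8 genes, the tektins included, rose in each treatment.

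Among the other genes of ciliated cells, Pifo, a ciliary gene, was at 0.488, 0.507, 0.842 and 0.435 CPM in the untreated WT-labelled libraries and at 4.86, 1.96, 7.02 and 1.85 CPM in the untreated RXRgKO-labelled ones. With T3, Pifo stood at 0.411, 0.432, 0.512 and 1.03 CPM under the WT label and at 8.12, 7.68, 2.99 and 3.30 CPM under the RXRgKO label. The groups did not overlap, and Pifo rose by 2.77 (SE 0.50, adjusted p = 0.0013) and 3.19 (SE 0.50, adjusted p = 0.00031), the latter the largest log2 fold change with T3 among the 37 genes. Ak7, an adenylate kinase of motile cilia, was at 0.732, 0.760, 0.884 and 1.09 CPM in the untreated WT-labelled libraries and at 2.47, 1.19, 1.92 and 1.13 CPM in the untreated RXRgKO-labelled ones. With T3, Ak7 stood at 0.284, 0.576, 0.939 and 0.453 CPM under the WT label and at 2.40, 3.00, 0.911 and 0.640 CPM under the RXRgKO label. Ak7 had an uncalled untreated value of 0.95 (SE 0.45, adjusted p = 0.23) and rose with T3 by 1.59 (SE 0.48, adjusted p = 0.032), although the RXRgKO-labelled libraries with Xist lay within the WT-labelled range, and the call was lost without replicate 1 or 2 of either label or WT-labelled replicate 4. Mlf1, a gene abundant in ciliated cells, was at 8.58, 9.89, 7.96 and 8.49 CPM in the untreated WT-labelled libraries and at 17.5, 8.36, 24.9 and 8.93 CPM in the untreated RXRgKO-labelled ones. With T3, Mlf1 stood at 12.3, 13.3, 16.2 and 17.9 CPM under the WT label and at 26.4, 26.7, 13.8 and 13.2 CPM under the RXRgKO label. High Mlf1 values belonged to the libraries lacking Xist, and those with Xist overlapped the WT-labelled ones. Mlf1 had 0.77 (SE 0.32, adjusted p = 0.15) and 0.42 (SE 0.31, adjusted p = 0.44), neither called. Tmem212, an ependymal transmembrane gene, did not pass the filter, with 0 to 2 counts in the WT-labelled libraries and 0 to 11 in the RXRgKO-labelled ones.

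**Figure D2:**
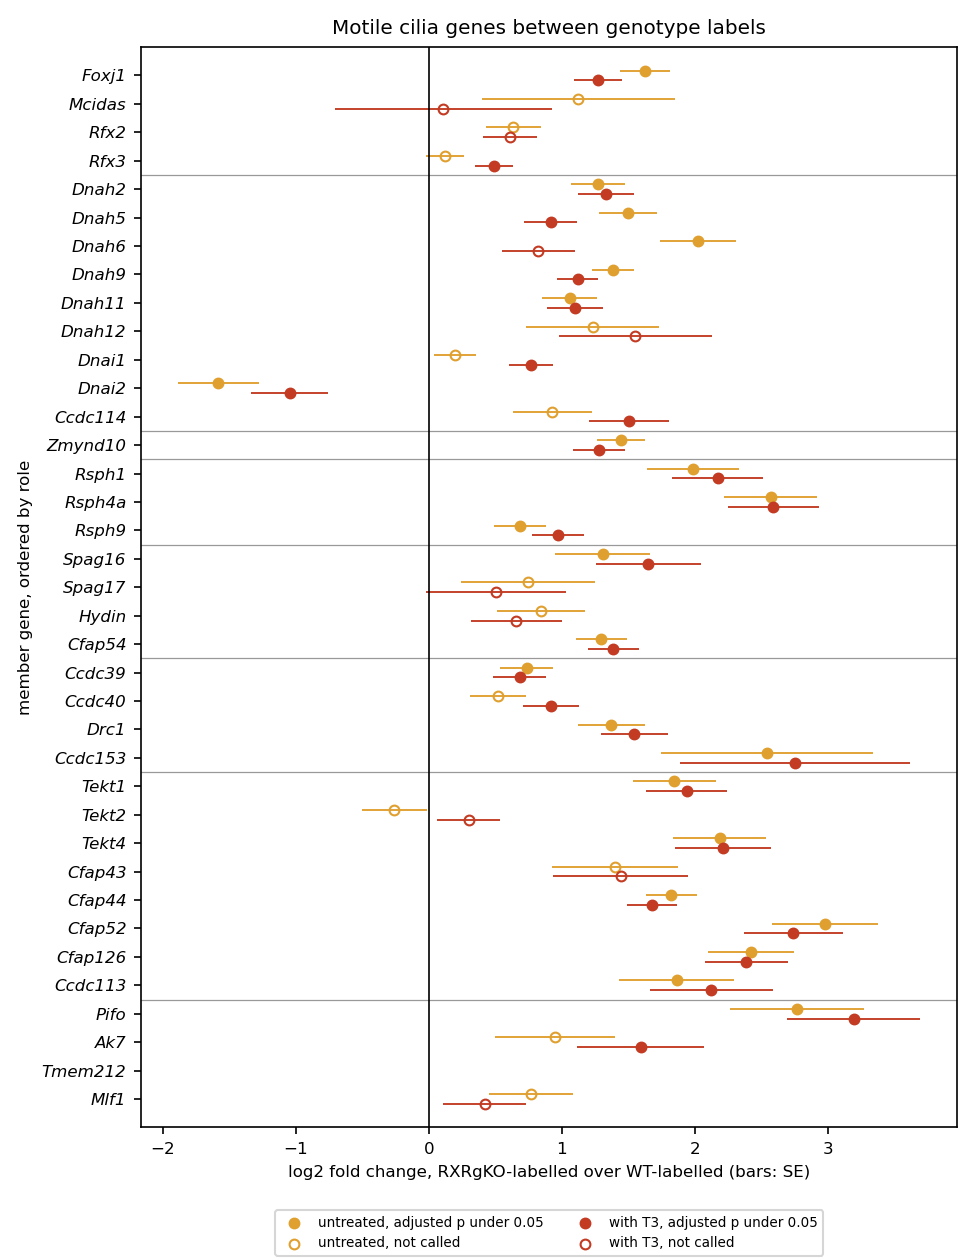
Log2 fold change of the RXRgKO-labelled over the WT-labelled libraries with its standard error, for each of the 37 genes in the order of their roles, untreated (yellow) and with T3 (red). Filled points had an adjusted p under 0.05. Nearly all points lie to the right of 0, those of Dnai2 lie to the left at -1.58 and -1.05, and Tmem212, which was not tested, has none.

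The size of the difference varied with the set of libraries. For 30 of the 37 genes in each treatment, both RXRgKO-labelled libraries lacking Xist lay above both of those with Xist, where 39.2% (untreated) and 39.6% (T3) of all genes did. The reverse order held for Rfx3 and Ccdc40 untreated and for Rfx3, Dnah9, Dnai2, Ccdc40 and Tekt4 with T3. The libraries with Xist were nevertheless both above all 4 WT-labelled ones for 28 genes untreated and 26 with T3, against 17.9% and 18.5% of all genes. For the libraries lacking Xist these numbers were 32 and 33, against 26.1% and 25.5%. Set against the WT-labelled libraries alone, the untreated libraries with Xist gave 20 genes higher and those lacking it 29, where 7.35% and 12.7% of all genes were higher. With T3 they gave 22 and 30, where 10.6% and 15.9% of all genes were. The median log2 fold changes were 1.04 with Xist and 1.53 without it untreated, and 0.94 and 1.56 with T3. Foxj1, Rsph1, Rsph4a, Cfap52, Cfap126, Cfap44, Pifo and Tekt1 rose in each of these 4 comparisons. So did Dnah2, Dnah5, Dnah9, Dnah11, Zmynd10, Cfap54, Drc1, Tekt4 and Ccdc113. Leaving out WT-labelled replicate 1 of both treatments gave 22 genes higher untreated and 25 with T3. Of all genes, 3028 and 4214 were then called in either direction, against 2240 and 2943 with all libraries. The comparisons of single sets, and those without replicate 1, were chosen after seeing the data. Every WT-labelled library had Xist, so in the libraries lacking it the label cannot be told apart from whatever goes with Xist.

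Markers of other cell types moved with the RXRgKO label as well. Beside the counts below, 6.17% of all genes rose and 5.16% fell untreated, and 8.1% and 6.8% did with T3. Of 7 microglia markers 6 rose in each treatment, and their summed level was 1.91 to 2.53 CPM (untreated) and 1.86 to 2.65 CPM (T3) under the WT label against 11.1 to 21.8 CPM and 4.34 to 19.7 CPM under the RXRgKO label. Aif1 was at 0 in 4 of the 8 WT-labelled libraries. Of 6 mesenchymal markers 5 rose in each treatment, from 30.0 to 51.2 CPM over the WT-labelled libraries to 158 to 276 CPM. Of 4 endothelial markers tested 3 rose, from 6.91 to 11 CPM to 21.3 to 49.2 CPM, with Cldn5 at 0 in 3 libraries. Neuron markers had 2 of 9 higher untreated and 6 of 9 with T3, at 359 to 795 CPM and 718 to 1036 CPM. All 8 oligodendrocyte markers fell untreated and 7 of 8 with T3, from 13400.3 to 29926 CPM to 1851 to 5681 CPM. No astrocyte or OPC marker was called in edgeR's quasi-likelihood test in either treatment. The part of these cell types in the cilia result was not tested.

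The choroid plexus, the tissue beside the ependyma, also carries motile cilia, and its markers were looked at more closely. Of 7 markers 2 rose untreated (Folr1 and Otx2) and 3 with T3 (these and Aqp1), where 6.17% and 8.1% of all genes did. All 7 had counts in every library. Their summed level was 58.5 to 284 CPM and 41.1 to 162 CPM under the WT label and 157 to 573 CPM and 27.7 to 536 CPM under the RXRgKO label. Ttr, the transthyretin gene and the most abundant of them, was at 265, 74.3, 54.0 and 45.7 CPM in the untreated WT-labelled libraries and at 277, 136, 528 and 127 CPM in the untreated RXRgKO-labelled ones. With T3, Ttr stood at 148, 34.1, 37.4 and 31.5 CPM under the WT label and at 492, 322, 5.93 and 30.9 CPM under the RXRgKO label. The labels overlapped for Ttr in both treatments, and the part of the choroid plexus in the cilia result was not tested either.

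**Figure D3:**
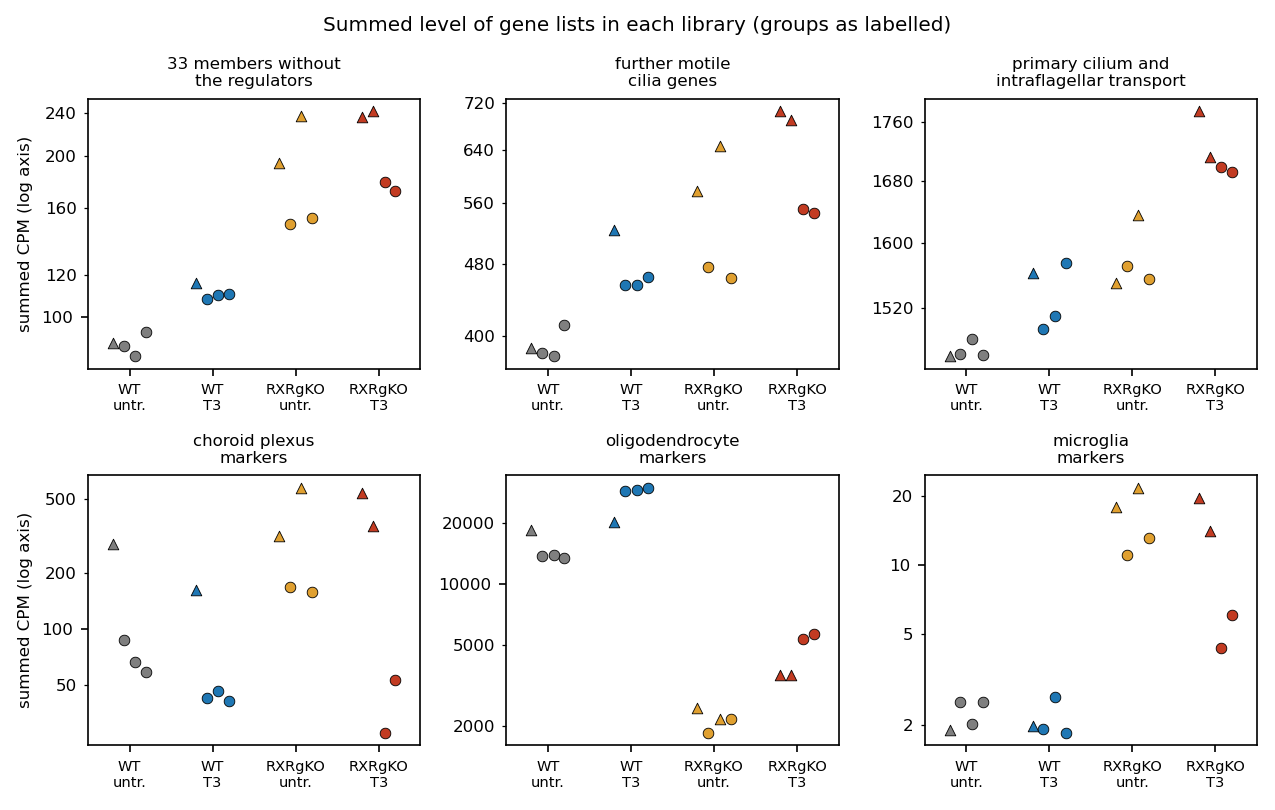
Summed CPM of 6 gene lists in each library (1 point per library, log axes that do not start at 0). Triangles are WT-labelled replicate 1 and the RXRgKO-labelled libraries lacking Xist, and circles are the other libraries. The 33 motile cilia genes separate the labels in both treatments, the choroid plexus markers of 2 T3-treated RXRgKO-labelled libraries (27.7 and 53.4 CPM) fall to the WT-labelled level, and the oligodendrocyte markers run the other way.

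In the fit of all libraries, which has no term for the library sets, few of the genes were called for T3, in no common direction. In the WT-labelled libraries 4 of 37 rose (Foxj1, Dnah5, Dnah9 and Dnai2), 2 fell (Dnai1 and Zmynd10) and 30 were not called, where 4.96% of all genes tested rose and 3.48% fell. Their median log2 fold change was -0.17, beside -0.03 over all genes. In the RXRgKO-labelled libraries 2 rose (Dnah5 and Dnai2) and 1 fell (Zmynd10), where 2.01% and 0.794% of all genes did, with a median of 0.01. Dnah5 and Dnai2 thus rose, and Zmynd10 fell, under both labels. Dnah5 went from 1.96 ± 0.406 to 5.47 ± 0.961 CPM (SD, n = 4) under the WT label, a rise of 1.48 (SE 0.22, adjusted p = 0.00034) on the log2 scale, and from 5.55 ± 1.50 to 10.4 ± 1.76 CPM under the RXRgKO label, a rise of 0.90 (SE 0.20, adjusted p = 0.022). The treated and untreated libraries did not overlap under either label. The second call was lost without untreated RXRgKO-labelled replicate 2 or 4 or T3-treated replicate 1 or 2.

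Foxj1 went from 14.2 ± 1.21 to 24.5 ± 5.44 CPM under the WT label, with all treated libraries above all untreated ones and replicate 1 the highest, and rose by 0.79 (SE 0.18, adjusted p = 0.012). Under the RXRgKO label it went from 43.7 ± 9.48 to 59.2 ± 11.4 CPM, with overlap, and had 0.44 (SE 0.18, adjusted p = 0.23). Dnah9 rose by 0.67 (SE 0.16, adjusted p = 0.014) under the WT label and had 0.40 (SE 0.15, adjusted p = 0.2) under the RXRgKO label, and the rise was lost without untreated WT-labelled replicate 2 or 3 or T3-treated replicate 1. Dnai1 fell by 0.77 (SE 0.17, adjusted p = 0.0075) under the WT label, from 2.25 ± 0.274 to 1.32 ± 0.234 CPM, and had -0.20 (SE 0.16, adjusted p = 0.56) under the other. Zmynd10 fell by 0.70 (SE 0.20, adjusted p = 0.039) under the WT label and by 0.86 (SE 0.18, adjusted p = 0.011) under the RXRgKO label, each without overlap, but the WT-labelled call was lost without untreated replicate 2, 3 or 4 or T3-treated replicate 1, 3 or 4. T3 in the WT-labelled libraries and the untreated comparison of the labels share the untreated WT-labelled libraries. Foxj1, Dnah5 and Dnah9, higher in both, are thus not independent findings there. The same holds wherever a T3 comparison and a label comparison share a group. Calls of Dnai1 and Zmynd10 share the treated WT-labelled libraries in this way, and calls of Dnai2 the untreated RXRgKO-labelled ones. The higher summed level of the 33 genes with T3 under the WT label lay mostly in Dnai2, Mlf1 and Dnah9. In the order Dnah9, Dnai2 and Mlf1, their means were 8.60 ± 0.846, 11.8 ± 6.55 and 8.73 ± 0.819 CPM in the untreated libraries and 13.6 ± 2.32, 23.2 ± 5.03 and 14.9 ± 2.62 CPM in the treated ones.

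More T3 changes were called where libraries were compared within sets or pairs. WT-labelled libraries of the same number were taken as pairs from correlated deviations across genes. Only replicate 1, however, correlated best with its own number when read from both treatments (0.65). Untreated replicate 3 correlated best with treated replicate 3 (0.21), but treated replicate 3 with untreated replicate 2 (0.27). Replicates 2 to 4 correlated with their own numbers at 0.16 to 0.25 and with each other's at 0.15 to 0.27. With this replicate block 12 genes were called, 6 higher and 6 lower, where 29.4% of all genes were. The 6 further ones were Dnah6 and Mlf1 higher and Rfx3, Dnah12, Ccdc40 and Cfap43 lower. Within WT-labelled replicates 2 to 4, 12 were called (44.3% of all genes) and in replicate 1, whose single pair borrows its spread from the other libraries, 6 (16.2%). Within the RXRgKO-labelled set lacking Xist 7 were called (18.3% of all genes) and within the set with Xist 15 (38.7%). Set beside these shares, the counts among the 37 are read as no result of the cilia genes as a group. Foxj1, Dnah5 and Dnai2 were higher within each of the 4 sets, with log2 fold changes for WT-labelled replicate 1, replicates 2 to 4, the set lacking Xist and the set with Xist of 1.32, 0.59, 0.43 and 0.46 for Foxj1, of 1.88, 1.32, 0.81 and 1.03 for Dnah5, and of 0.50, 1.28, 0.93 and 2.01 for Dnai2.

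**Figure D4:**
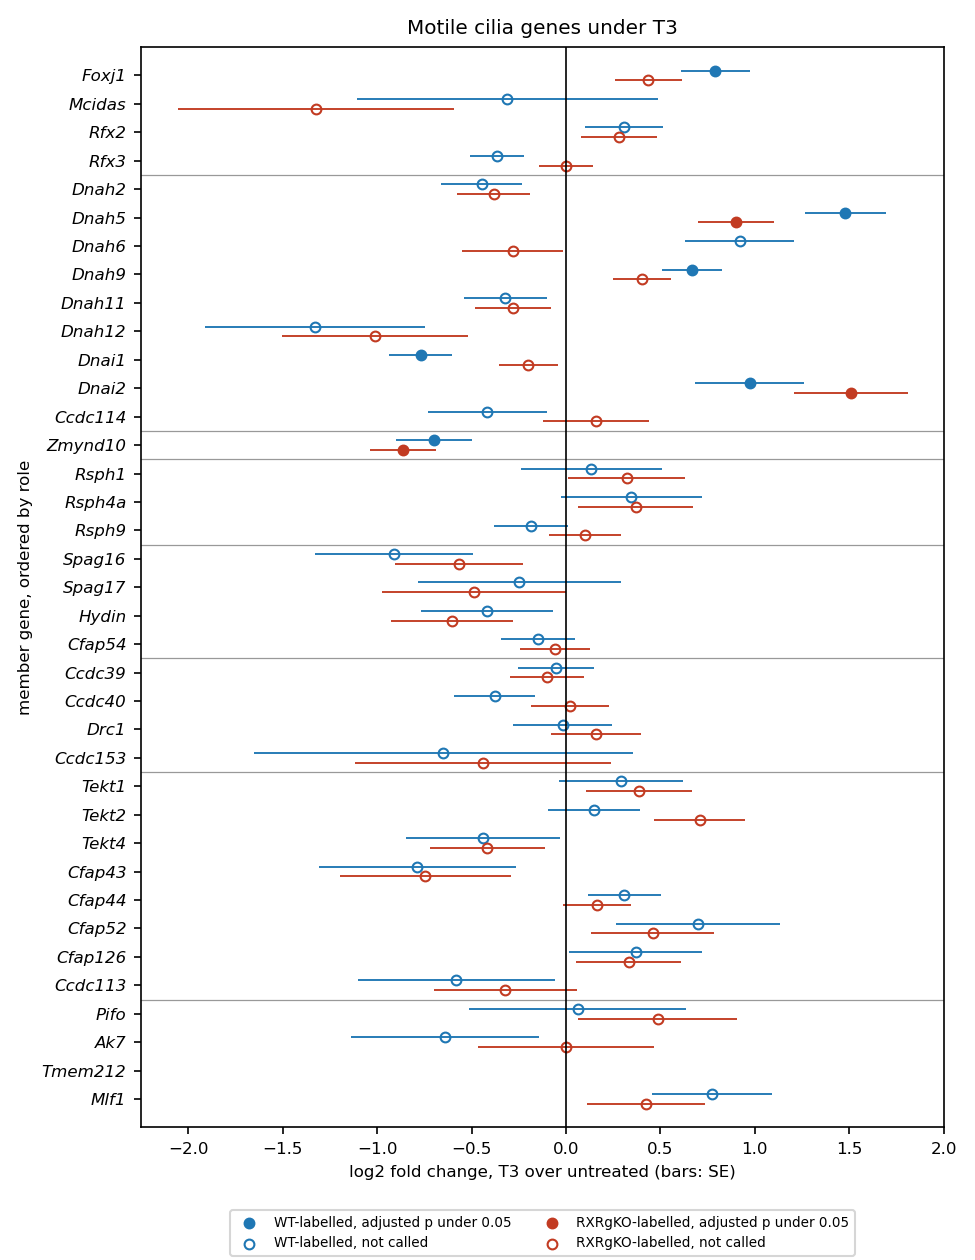
Log2 fold change of the T3-treated over the untreated libraries with its standard error, for each of the 37 genes in the order of their roles, under the WT label (blue) and the RXRgKO label (red). Filled points had an adjusted p under 0.05. The points scatter on both sides of 0, with Dnah5 and Dnai2 to the right and Zmynd10 to the left under both labels.

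Whether T3 acted differently under the 2 labels was tested as an interaction. In edgeR's quasi-likelihood test none of the 37 genes was called, the lowest adjusted p being 0.53, where 13 genes (0.0658% of all) were. DESeq2 and limma voom called 0 as well. In edgeR's quasi-likelihood test 2 of the 36 genes tested passed 0.05 before adjustment, a share close to that of all genes (1017 of 19764). They were Dnah6 with a log2 difference of -1.20 (SE 0.39) and Dnai1 with 0.57 (SE 0.23). Dnah6 had a T3 change of 0.92 (SE 0.29, adjusted p = 0.061) under the WT label and of -0.28 (SE 0.27, adjusted p = 0.64) under the RXRgKO label. With the library set as a term, 2 genes were called, Rfx3 at 0.37 and Dnah6 at -1.24, where 6.68% of all genes were. For Foxj1 the difference was -0.35 (SE 0.25, adjusted p = 1).

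Dnai2, the only gene of the 37 that was lower with the RXRgKO label, was compared with its neighbours on chromosome 11, a choice made after its values were seen. Ttyh2, a membrane protein gene of the tweety family, ends 6430 bases before Dnai2, Kif19a, a kinesin that limits the length of motile cilia, begins 7498 bases after it, and Btbd17 lies 33327 bases away. Rpl38 and Gprc5c, which also lie within 100000 bases of it, were not called in any of the 5 comparisons and are not described further, and Gpr142 was not tested. Kif19a was at 50.9, 10.0, 8.68 and 9.53 CPM in the untreated WT-labelled libraries and at 4.83, 4.51, 4.43 and 5.07 CPM in the untreated RXRgKO-labelled ones. With T3, Kif19a stood at 132, 79.2, 72.8 and 72.3 CPM under the WT label and at 30.2, 29.1, 36.6 and 40.9 CPM under the RXRgKO label. As for Dnai2, untreated WT-labelled replicate 1 was far above the others and the RXRgKO label was below the WT label throughout in each treatment. Kif19a fell by 2.07 (SE 0.47, adjusted p = 0.0068) and 1.38 (SE 0.44, adjusted p = 0.044) between the labels, the second of which was lost without any 1 library of the comparison, and rose with T3 by 2.17 (SE 0.45, adjusted p = 0.006) and 2.86 (SE 0.48, adjusted p = 0.0025).

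Ttyh2 was at 256, 52.3, 53.5 and 53.6 CPM in the untreated WT-labelled libraries and at 40.6, 43.4, 38.7 and 43.2 CPM in the untreated RXRgKO-labelled ones. With T3, Ttyh2 stood at 372, 108, 105 and 101 CPM under the WT label and at 88.9, 84.3, 173 and 188 CPM under the RXRgKO label. Replicate 1 of the WT label was again the highest library of each treatment, and none of the Ttyh2 differences was called. Btbd17 was at 36.1, 20.7, 20.4 and 21.9 CPM in the untreated WT-labelled libraries and at 17.7, 17.4, 13.5 and 16.4 CPM in the untreated RXRgKO-labelled ones. With T3, Btbd17 stood at 91.7, 49.2, 50.5 and 63.6 CPM under the WT label and at 58.5, 53.3, 86.0 and 92.3 CPM under the RXRgKO label. It rose with T3 by 1.36 (SE 0.24, adjusted p = 0.0017) and 2.16 (SE 0.25, adjusted p = 6.3e-05), and had -0.61 (SE 0.24, adjusted p = 0.13) and 0.19 (SE 0.23, adjusted p = 0.69) between the labels. For Dnai2 itself T3 gave 0.97 (SE 0.29, adjusted p = 0.047) under the WT label, lost without any 1 library of these 8 except untreated replicate 1, and 1.51 (SE 0.30, adjusted p = 0.01) under the RXRgKO label, lost without untreated replicate 2 or 4. Within T3 the RXRgKO-labelled libraries with Xist were above those lacking it for all 4 genes. With T3, 39.7% of all genes tested had this order.

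**Figure D5:**
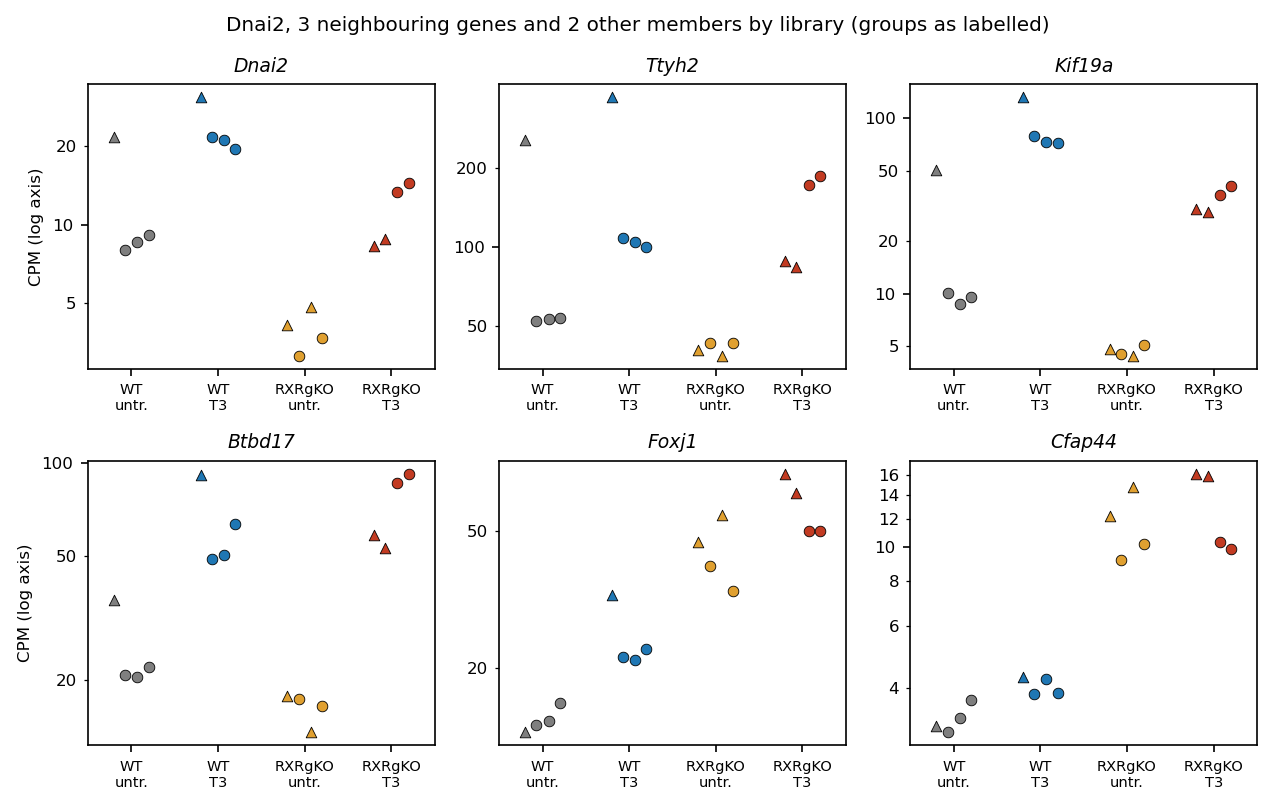
CPM of Dnai2, its neighbours Ttyh2, Kif19a and Btbd17, and the members Foxj1 and Cfap44 in each library (log axes that do not start at 0; triangles are WT-labelled replicate 1 and the RXRgKO-labelled libraries lacking Xist, circles the others). Dnai2 and Kif19a are lower under the RXRgKO label and higher with T3, whereas Foxj1 and Cfap44 are higher under the RXRgKO label, with their highest values in the libraries lacking Xist.

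Other genes of the cilium were read from lists that do not overlap with the 37. Like the 37, these lists were chosen with earlier results of these data known, so they are not independent support. Of 103 further motile cilia genes 100 were matched and 95 tested. Of these, 46 rose and 2 fell with the RXRgKO label untreated, where 6.17% and 5.16% of all genes did. With T3, 46 rose and 1 fell, where 8.1% and 6.8% of all genes did. The median log2 fold changes were 1.05 untreated and 1.03 with T3. Dnali1, an inner arm light chain, had 2.38 (SE 0.22, adjusted p = 2.1e-06) and 2.02 (SE 0.21, adjusted p = 6.2e-06). Capsl, a calcium-binding gene of ciliated cells, had 3.08 (SE 0.35, adjusted p = 2.1e-05) and 3.46 (SE 0.36, adjusted p = 5.7e-06), and Enkur, an axonemal adaptor gene, had 2.51 (SE 0.30, adjusted p = 2.7e-05) and 2.58 (SE 0.29, adjusted p = 1.4e-05). The adenylate kinase gene Ak9 had 2.59 (SE 0.28, adjusted p = 1.1e-05) and 2.43 (SE 0.27, adjusted p = 1.2e-05). Kif19a, described above, was among those that fell in both treatments. T3 raised 7 and lowered 2 of the 95 under the WT label, where 4.96% of all genes tested rose and 3.48% fell. It raised 1, Kif19a, under the RXRgKO label, where 2.01% of all genes rose.

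Of 17 tested genes that control multiciliation, 2 (11.8%) rose in each treatment, where 6.17% and 8.1% of all genes did, and none fell, with medians of 0.04 and 0.11. Deup1, which builds the deuterosome on which extra centrioles form, rose by 2.58 (SE 0.63, adjusted p = 0.011) and 2.33 (SE 0.70, adjusted p = 0.033). Gmnc, the geminin relative upstream of Mcidas, was at 1.06, 0.507, 1.14 and 0.566 CPM in the untreated WT-labelled libraries and at 2.71, 2.12, 3.02 and 1.25 CPM in the untreated RXRgKO-labelled ones, and rose by 1.46 (SE 0.39, adjusted p = 0.021). With T3, Gmnc stood at 0.695, 0.672, 0.725 and 0.907 CPM under the WT label and at 2.86, 2.11, 0.937 and 0.886 CPM under the RXRgKO label, with overlap and 1.14 (SE 0.40, adjusted p = 0.069). Trp73, a relative of the tumour suppressor Trp53 that acts upstream of Foxj1, had 0.66 (SE 0.31, adjusted p = 0.23) untreated and rose by 1.07 (SE 0.34, adjusted p = 0.043) with T3. Each of these calls was lost without 1 or more single libraries, apart from that of Deup1 untreated. Ccno had 0.63 (SE 0.29, adjusted p = 0.21) and 0.61 (SE 0.30, adjusted p = 0.2), and Myb -0.17 (SE 0.21, adjusted p = 0.73) and -0.60 (SE 0.22, adjusted p = 0.077).

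Of 49 genes of the primary cilium and of intraflagellar transport, which most cells use, 2 (4.08%) rose untreated, where 6.17% of all genes did, 7 (14.3%) rose with T3, where 8.1% did, and none fell, with medians of 0.10 and 0.16. Tctn2, of the transition zone, had 0.54 (SE 0.11, adjusted p = 0.0027) and 0.47 (SE 0.11, adjusted p = 0.0058). The difference between this list and the 37 genes was not tested. Of 14 ependymal cell genes outside the axoneme, 4 rose and 1, Ank3, fell in each treatment, with medians of 0.31 and 0.43. Of all genes, 6.17% rose and 5.16% fell untreated, and 8.1% and 6.8% did with T3. Tm4sf1 had 3.02 (SE 0.46, adjusted p = 0.00029) and 2.44 (SE 0.44, adjusted p = 0.0011), Calml4 2.36 (SE 0.45, adjusted p = 0.0019) and 2.67 (SE 0.46, adjusted p = 0.00077), and Rarres2 1.55 (SE 0.36, adjusted p = 0.0083) and 1.75 (SE 0.37, adjusted p = 0.0033). S100b, Aqp4 and Cd24a, which mark ependymal cells together with other cells, were not called in either treatment. Whether the genes of this list that rose are particular to ependymal cells was not tested either. Of the ependymal genes outside the axoneme 9 of 14 were thus not called, and the 37 genes are named here by their motile cilia rather than by a cell type.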

How the data were processed

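RNA sequencing of 16 libraries was used as raw read counts per Ensembl gene, which the authors deposited with 1 table per library. Per the submitters' processing notes, HTSeq 0.6.1p1, STAR 2.5.3a and bcl2fastq 2.17.1.14 were used with mm10. Which annotation release was counted, and whether by strand, is not given in the sources used. The 5 summary lines of each table (reads outside genes, ambiguous or at several sites) were left out of library sizes. Of 55335 identifiers 55154 were named from the GENCODE M21 annotation of GRCm38. The 37 genes and all lists were chosen with earlier results of these data known.

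The groups come from the labels. All libraries entered 1 fit in edgeR 4.0.16 (R 4.3.3) with TMM normalisation, filterByExpr and a robust quasi-likelihood test. There were 5 comparisons: T3 within each label, the labels within each treatment, and the difference between the T3 responses. P-values were adjusted by Benjamini-Hochberg over 19764 genes and called under 0.05, and SE is the log2 fold change over the root of F. The method was tested on simulated counts without library sets, which cannot show how it behaves with the sets of these data. Depth was 18262279 to 42588442 counts.

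Values by library are given for the 4 regulators, for genes called in any comparison and for the 3 highest per kilobase, and ranges for the others. From further lists, called genes are named by the smallest adjusted p, with 5 control genes fixed. Some listed genes are counted but not reported here by name. Kif19a, Ttyh2, Btbd17 and the examples of other lists' markers were chosen after their values were seen. Libraries were joined into a set where their chi-square over genes with moderate counts was under 3 a gene (1.50 to 2.12 within sets, 4.94 to 9.62 between them). Same-numbered WT-labelled libraries had deviations correlated across genes at 0.65, 0.25, 0.21 and 0.16 and were treated as pairs for T3. Only replicate 1, however, correlated best with its own number when read from both treatments. Alternatives tried were DESeq2 1.42.0, limma 3.58.1 (voom), DESeq2's size factors, other filters, a non-robust fit, fits of the compared groups only, a replicate block, library sets and leaving out each library. Those that set library sets against the WT label, or left out replicate 1, were chosen after seeing the data.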

Additional observations from a re-analysis of the deposited data

Results flagged for a closer look

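In each group of 4 libraries, a gene's highest or lowest value was looked at more closely where its gap to the next exceeded Dixon's 95% critical value. This held for 10 of 152 groups, and chance gives about 1 in 20. Foxj1 in WT-labelled replicate 1 with T3 was at 32.6 CPM, the others being at 21.2 to 22.7 CPM. In the same library Dnah6 was at 2.75 CPM, below 5.36 to 5.86 CPM. Dnai2 was at 21.6 CPM in untreated WT-labelled replicate 1, above 8.03 to 9.10 CPM.

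In untreated RXRgKO-labelled replicate 3, Rfx2 was at 12.3 CPM, above 10.8 to 10.9 CPM, and Zmynd10 at 4.51 CPM, above 3.31 to 3.49 CPM. Zmynd10 was also high in untreated WT-labelled replicate 2, at 1.56 CPM against 1.26 to 1.31 CPM. Rsph1 was at 0.505 CPM in untreated WT-labelled replicate 3, below 1.04 to 1.14 CPM. Pifo was at 1.03 CPM in WT-labelled replicate 4 with T3, above 0.411 to 0.512 CPM. Tmem212 was at 0 in untreated WT-labelled replicate 3 and at 0.0427 CPM in replicate 3 with T3, differences of at most 2 counts.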

How the results depend on the processing

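No log2 fold change of a called gene changed sign under any alternative run. Between the labels, 18 of the 23 cilia genes called untreated and 19 of the 27 called with T3 were called under every alternative that could test them. The labels' median log2 fold change moved by more than the spread between libraries only for the libraries with Xist and T3, to 0.94.

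Leaving out 1 library gave 19 to 25 cilia genes untreated (19 without RXRgKO-labelled replicate 1 or 3), 23 to 29 with T3, 3 to 6 for T3 under the WT label (3 without untreated replicate 2 or 3), 1 to 3 under the RXRgKO label (1 without untreated replicate 2 or 4) and 0 for the difference of responses. With the replicate block, called cilia genes were 12 and 1 for T3 under the WT and RXRgKO label, 19 untreated and 18 with T3 between labels, and 0 for the difference. For T3 under the WT label, replicate 1 alone correlated best with its own number when read from both treatments. Elsewhere replicate numbers did not pair libraries, with correlations of 0.54, -0.63, -0.70 and 0.60 for T3 under the RXRgKO label. With the library set as a term, T3 gave 15 and 17 cilia genes and the difference 2. Of 19764 genes, 7599, 6634 and 1321 were called with that term. Within sets, T3 gave 12 in WT-labelled replicates 2 to 4, and 7 and 15 in the RXRgKO-labelled libraries lacking and having Xist. The cause of these shifts was not tested.

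Of all genes, T3 under the WT label called 1668, but 5084 with the replicate block, 7599 with the set term, 3197 and 8758 within sets, 2688 without replicate 1 of both treatments and 997 to 2475 leaving out 1 library. T3 under the RXRgKO label called 555, but 1194 in DESeq2, 142 with the block, 6634 with the set term, 3614 and 7639 within sets and 253 to 500 leaving out 1. Between labels, 2240 untreated became 5049 in the libraries lacking Xist, and 2943 with T3 became 6357 there and 1381 with the block. The untreated number was 1672 with the block and 1712 to 2206 leaving out 1 library. With T3, leaving out 1 library gave 2178 to 3195. The 13 of the difference became 20 with the filter at 1 CPM, 112 in DESeq2, 4 with the block, 1321 with the set term, 118 without replicate 1 and 3 to 49 leaving out 1. Low counts limit Mcidas, Tmem212, Spag17, Spag16 and Ccdc113.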
